A study of Homo sapiens with 4 samples.

Results

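Histone genes were followed through the lists of differentially expressed mRNAs of 2 human hepatocellular carcinoma (HCC) cell lines treated by sonodynamic therapy (SDT). The members were the protein-coding genes whose symbol begins with HIST1H, HIST2H, HIST3H or HIST4H, the H2AF and H3F variants, and genes that carry a histone symbol of the newer nomenclature (H1-, H2AC, H2BC, H3C or H4C followed by a number). The rule took 88 of the 19951 protein-coding genes of GENCODE release 29. By symbol, 71 of them were replication-dependent genes of the HIST1 to HIST4 clusters and 17 were variants outside these clusters. Group A was HepG2 cells before treatment and group B was HepG2 cells after it. Group C was Huh7 cells before treatment and group D was Huh7 cells after it. The treatment combined perfluoropropane nanobubbles that carried the sonosensitizer hematoporphyrin monomethyl ether (HMME) and the drug lonidamine (LND), called HMME-LND@C3F8-NBs, with low-frequency ultrasound. Both lines are established tumour lines, and each group was 1 library of total RNA depleted of ribosomal RNA and prepared by a directional protocol.

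The deposited tables held no expression values. For HepG2 (group B vs. A) and Huh7 (group D vs. C) they gave the genes called differentially expressed that fall under each GO term and each KEGG pathway. A gene is called listed here when its Ensembl identifier stood under any GO term of a comparison. The tables carried no direction, so nothing here says whether a histone mRNA rose or fell. With 1 library in a group there is no replicate error, no interval and no test of these lists, and the depth of the libraries is unknown from the tables. The cell lines could not be checked against marker levels for the same reason.

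Histones are the proteins that package DNA. Pairs of H2A, H2B, H3 and H4 make the core particle of the nucleosome, and H1 binds the DNA between particles. The replication-dependent genes are expressed during S phase, when new DNA has to be packaged. Most have no introns, and their mRNAs end in a conserved stem-loop in place of a poly(A) tail, so that libraries made without poly(A) selection retain them. Variants such as H2A.Z, macroH2A and H3.3 are made throughout the cell cycle from polyadenylated mRNAs and replace the canonical proteins at particular sites.

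The stem-loop shows what the replication-dependent mRNAs share beyond their symbols. A pattern of 16 bases, which allowed the known differences in the stem and loop, was found in the GENCODE release 29 transcripts (GRCh38) of 32 of the 71 replication-dependent genes (45.1%) against 39 of the 19951 protein-coding genes (0.195%). The 39 include these 32. Among the 38 replication-dependent genes whose model reaches beyond the coding sequence, 32 (84.2%) held it. Of the variants, H2AFX also held the pattern, and it was listed in neither comparison. In the replication-dependent genes the pattern came in 6 forms. Each is given here for 1 gene, in the 5′ to 3′ direction as DNA letters. Capitals mark the stem-loop and lower case letters the flanking bases.
HIST1H3H: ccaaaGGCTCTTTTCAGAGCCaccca
HIST1H2BF: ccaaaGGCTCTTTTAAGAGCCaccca
HIST1H4J: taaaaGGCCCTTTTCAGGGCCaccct
HIST2H4A: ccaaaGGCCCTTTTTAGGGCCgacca
HIST1H3E: ccaaaGGCTCTTCTCAGAGCCaacca
HIST1H2AG: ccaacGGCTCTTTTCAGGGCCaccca
The form in HIST1H3H was held by 17 genes of H2A, H2B and H3, of which 6 were listed in HepG2 and 12 in Huh7. The forms in HIST1H4J (5 genes) and HIST2H4A (3 genes) were held by H4 genes. All 3 genes with the HIST2H4A form, HIST2H4A, HIST2H4B and HIST1H4I, were listed in both comparisons. Only 3.79% and 2.86% of the stretches of 75 bases in HIST2H4A and HIST2H4B are unique to the gene, so their listing is uncertain. The form in HIST1H2BF was held by 5 genes, 3 of them listed in HepG2 and 3 in Huh7, and the last 2 forms by 1 gene each.

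The promoters carried further shared letters. RefSeq promoters (GRCh38.p14, 250 bases before and 50 after the start) were matched for 80 of the 88 members and for 66 of the 71 replication-dependent genes. TATAAA, the core of the TATA box, was present on either strand in 45 of these 66 (68.2%) against 11.5% of all 35116 promoters. CCAAT, the core of the CCAAT box, was present in 56 (84.8%) against 34.6% of all promoters. The octamer ATTTGCAT, bound by OCT1 (POU2F1) and known from H2B promoters, was present in 26 (39.4%) against 1.77% of all promoters. The octamer was searched after the sequences had been seen. The 120 bases before the start are shown for 1 gene of each core class with its listing, for the H1 genes HIST1H1B and HIST1H1E, and for HIST1H2BJ and HIST1H2BK, neighbouring H2B genes of which HIST1H2BJ was listed in both comparisons and HIST1H2BK in neither. Capitals mark these 3 motifs on either strand, and no marked motifs overlap in these stretches. HIST1H2BK has several RefSeq starts, and the stretch before the first of them is given.
HIST1H3A (listed in both, chr6:26020331-26020450, + strand): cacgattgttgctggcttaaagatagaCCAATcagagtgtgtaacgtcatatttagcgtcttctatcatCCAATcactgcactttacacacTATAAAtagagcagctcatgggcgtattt
HIST1H4J (listed in both, chr6:27823972-27824091, + strand): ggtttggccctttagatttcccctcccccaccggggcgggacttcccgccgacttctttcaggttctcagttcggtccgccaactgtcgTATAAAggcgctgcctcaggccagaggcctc
HIST1H2AB (listed in both, chr6:26033619-26033738, - strand): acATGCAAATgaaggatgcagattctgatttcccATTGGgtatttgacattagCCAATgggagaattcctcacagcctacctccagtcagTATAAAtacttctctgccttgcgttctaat
HIST1H2BJ (listed in both, chr6:27132796-27132915, - strand): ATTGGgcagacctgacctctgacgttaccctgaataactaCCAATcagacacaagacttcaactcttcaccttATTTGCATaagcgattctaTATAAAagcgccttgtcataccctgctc
HIST1H2BK (listed in neither, chr6:27146859-27146978, - strand): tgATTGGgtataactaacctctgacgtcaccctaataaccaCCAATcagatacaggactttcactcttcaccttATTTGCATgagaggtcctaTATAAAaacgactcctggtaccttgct
HIST1H1B (listed in both, chr6:27867589-27867708, - strand): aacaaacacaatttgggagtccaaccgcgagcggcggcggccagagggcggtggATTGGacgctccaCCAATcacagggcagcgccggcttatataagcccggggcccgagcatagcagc
HIST1H1E (listed in neither, chr6:26156209-26156328, + strand): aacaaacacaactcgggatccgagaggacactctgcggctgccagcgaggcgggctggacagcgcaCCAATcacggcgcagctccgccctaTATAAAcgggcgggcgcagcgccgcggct
HIST1H2BJ and HIST1H2BK carried the same order of motifs and differed in listing. CCAAT was in every matched promoter of the H1 (6), H2A (16), H2B (18) and H3 (13) classes and in 3 of 13 H4 promoters. The octamer was in 14 of 18 H2B and 11 of 16 H2A promoters, in 1 of 13 H3 promoters and in no H1 or H4 promoter. The windows of neighbouring H2A and H2B genes can overlap, so 1 site can be counted for 2 genes. Most of the 11 H2A matches were also the match of a neighbouring H2B gene, as with HIST1H2AG and HIST1H2BJ. The H3 match lay before the upstream start of HIST1H3D, a stretch that is also the HIST1H2AD promoter, and the other RefSeq start of HIST1H3D had no octamer. TATAAA ranged from 3 of 6 H1 to 11 of 13 H3 promoters. These are matches of letters and not sites shown to be bound.

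In HepG2 cells 55 of the 88 histone genes (62.5%) were listed, beside 21.6% of the 22148 genes of the GO background. In Huh7 cells 50 (56.8%) were listed, beside 19.7% of the background. Of the 88, 39 (44.3%) were listed in both comparisons, beside 10.3% of the background. These 39 made up 70.9% of the histone genes listed in HepG2 and 78% of those listed in Huh7. For all listed genes the corresponding shares were 47.7% and 52.2%. A further 16 histone genes were listed only in HepG2, 11 only in Huh7 and 22 in neither. The histone family was selected on its listing in these same tables, so these shares are a description with no test. The plot of listing by gene and class gives every member.

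**Figure D1:**
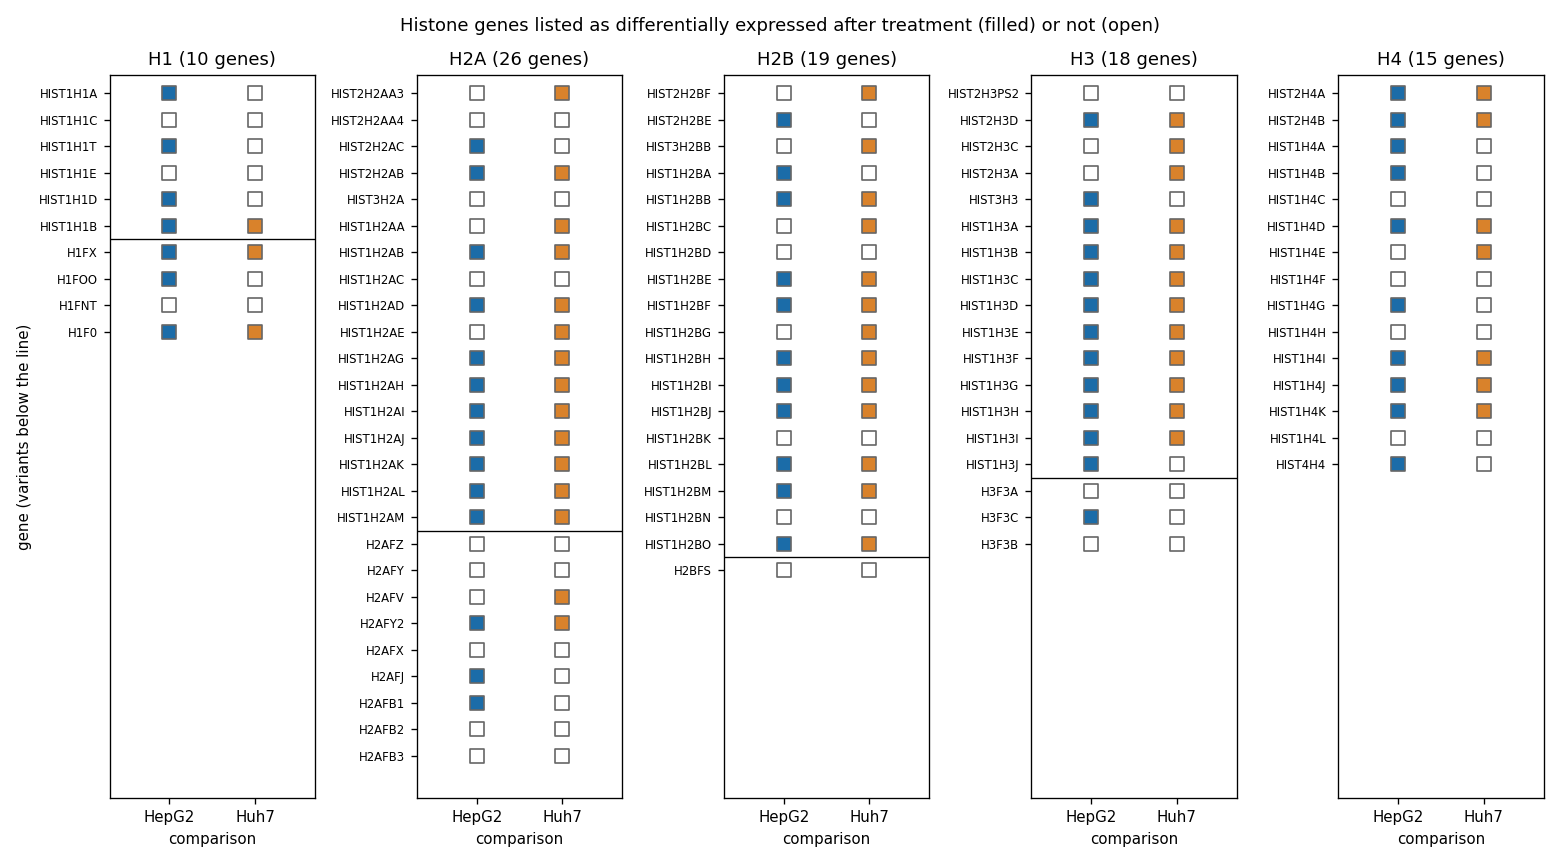
Listing of the 88 histone genes by class. Each row is a gene and each column a comparison (HepG2, B vs. A, blue; Huh7, D vs. C, orange); a filled square is a listed gene, an open square a gene that was not listed, and genes below the horizontal line are variants. The 39 genes with both squares filled include 9 of the 10 HIST1H3 genes and the 7 consecutive H2A rows from HIST1H2AG to HIST1H2AM, with HIST1H2AD and HIST1H2AB above them.

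Over all classes together, replication-dependent genes had a larger listed share than variants in both lines. Of the 71 replication-dependent genes, 48 (67.6%) were listed in HepG2, 46 (64.8%) in Huh7 and 36 (50.7%) in both. Of the 17 variants, 7 (41.2%) were listed in HepG2, 4 (23.5%) in Huh7 and 3 (17.6%) in both. The Huh7 share of the variants stood near the 19.7% of the background, and their HepG2 share stood above its 21.6%. Within H1 the order was reversed. Of the 4 H1 variants, 3 were listed in HepG2 and 2 in Huh7, beside 4 and 1 of the 6 replication-dependent H1 genes. These differences were not tested.

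H3, which carries the best studied histone marks on its tail, had the highest replication-dependent share in both lines. In HepG2 12 of 15 H3 genes (80%) were listed, and in Huh7 again 12 of 15, with 10 in both. HIST1H3A, HIST1H3B, HIST1H3C, HIST1H3D, HIST1H3E, HIST1H3F, HIST1H3G, HIST1H3H and HIST1H3I were listed in both comparisons and HIST1H3J only in HepG2. These 10 genes encode the same protein of 136 residues by 10 different coding sequences. HIST2H3D was listed in both comparisons, whereas HIST2H3A and HIST2H3C were listed only in Huh7. HIST3H3, known as a testis H3, was listed only in HepG2, and HIST2H3PS2 in neither. Of the stretches of 75 bases, 29.7% were unique to the gene in HIST2H3D. In HIST1H3D, HIST2H3A, HIST2H3C and HIST2H3PS2 the share was 0%. The listing of these genes, and the contrast among the HIST2 genes of H3, is uncertain.

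H4, the most conserved core histone, differed more between the lines. In HepG2 10 of 15 H4 genes (66.7%) were listed, and in Huh7 7 of 15 (46.7%). This difference rests on few genes and was not tested. HIST2H4A, HIST2H4B, HIST1H4D, HIST1H4I, HIST1H4J and HIST1H4K were listed in both. HIST1H4A, HIST1H4B, HIST1H4G and HIST4H4 were listed only in HepG2, HIST1H4E only in Huh7, and HIST1H4C, HIST1H4F, HIST1H4H and HIST1H4L in neither. Here 14 of the 15 genes encode the same 103 residues, and among these 14 every listing state occurred: 6 in both, 3 only in HepG2, 1 only in Huh7 and 4 in neither. HIST1H4G, the remaining gene, encodes a shorter protein of 98 residues.

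H2A and H2B, which pair as a dimer on the surface of the core particle, had the larger share in Huh7. In HepG2 11 of 17 H2A genes (64.7%) and 11 of 18 H2B genes (61.1%) were listed. In Huh7 the counts were 13 of 17 (76.5%) and 13 of 18 (72.2%). These differences rest on few genes and were not tested. Among H2A genes HIST2H2AB, HIST1H2AB, HIST1H2AD, HIST1H2AG, HIST1H2AH, HIST1H2AI, HIST1H2AJ, HIST1H2AK, HIST1H2AL and HIST1H2AM were listed in both. HIST2H2AC was listed only in HepG2, HIST2H2AA3, HIST1H2AA and HIST1H2AE only in Huh7, and HIST2H2AA4, HIST3H2A and HIST1H2AC in neither. Among H2B genes HIST1H2BB, HIST1H2BE, HIST1H2BF, HIST1H2BH, HIST1H2BI, HIST1H2BJ, HIST1H2BL, HIST1H2BM and HIST1H2BO were listed in both. HIST2H2BE and HIST1H2BA were listed only in HepG2, HIST2H2BF, HIST3H2BB, HIST1H2BC and HIST1H2BG only in Huh7, and HIST1H2BD, HIST1H2BK and HIST1H2BN in neither.

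Identical proteins were again spread over several genes. HIST1H2AG, HIST1H2AI, HIST1H2AK, HIST1H2AL and HIST1H2AM encode the same H2A of 130 residues by 5 coding sequences, and all 5 were listed in both comparisons. In HIST1H2AI and HIST1H2AM only 39.9% and 14.7% of the stretches of 75 bases were unique to the gene, so their listing is uncertain. HIST1H2BC, HIST1H2BE, HIST1H2BF, HIST1H2BG and HIST1H2BI encode the same H2B of 126 residues, and 3 of them were listed in both and 2 only in Huh7. HIST2H2AA3 and HIST2H2AA4 share 1 coding sequence, yet HIST2H2AA3 was listed in Huh7 and HIST2H2AA4 was not. Reads from such copies cannot be assigned by sequence alone, so the listing of either copy is uncertain.

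The linker histones went the other way. Of the 6 replication-dependent H1 genes, 4 were listed in HepG2 and 1 in Huh7. HIST1H1B was listed in both, HIST1H1A, HIST1H1D and the testis gene HIST1H1T only in HepG2, and HIST1H1C and HIST1H1E in neither. H1 genes encode 6 different proteins, and all stretches of 75 bases in their transcript models were unique to the gene, so their reads can be told apart. The H1 difference between the lines rests on 3 genes, and it was not tested.

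**Figure D2:**
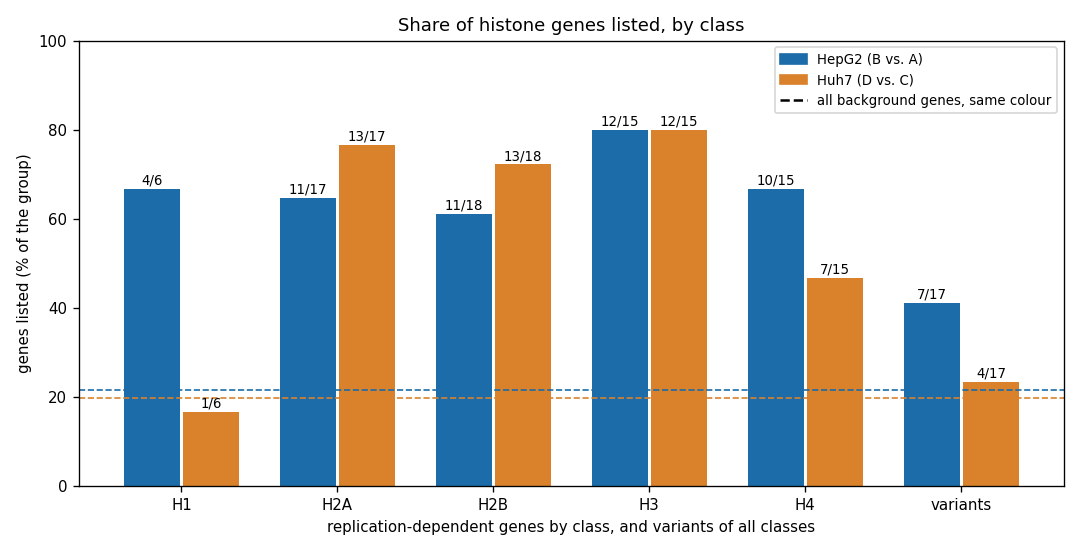
Share of histone genes listed, by class. Bars give the percentage of replication-dependent genes of a class, or of all variants, that were listed in HepG2 (blue) and in Huh7 (orange), with the counts above the bars; dashed lines give the background shares of 21.6% and 19.7%. H3 reached 80% in both lines, H1 and H4 were higher in HepG2, and H2A and H2B were higher in Huh7. These differences rest on few genes and were not tested.

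Among the variants H1F0, an H1 known from non-dividing cells, H1FX and H2AFY2 (macroH2A2) were listed in both comparisons. H1FOO (an oocyte H1), H2AFJ, H3F3C and H2AFB1 were listed only in HepG2, and H2AFV (the second H2A.Z gene) only in Huh7. The widely expressed variants H3F3A and H3F3B (H3.3), H2AFZ (H2A.Z), H2AFY (macroH2A1) and H2AFX, which is phosphorylated at DNA breaks, were listed in neither, as were H1FNT, H2BFS, H2AFB2 and H2AFB3. H2AFB1, H2AFB2 and H2AFB3 are near copies, with 14.6%, 0% and 0.774% of their stretches of 75 bases unique to the gene, so the listing of H2AFB1 alone is uncertain. Counting genes known mainly from germ cells (HIST1H1T, H1FNT, H1FOO, HIST1H2AA, HIST1H2BA, HIST3H3, H3F3C, H2AFB1, H2AFB2 and H2AFB3), 6 of 10 were listed in HepG2, 1 in Huh7, HIST1H2AA, and 0 in both. The background shares were 21.6% in HepG2, 19.7% in Huh7 and 10.3% in both, and no difference from them was tested. The H2AFB near copies in this group are not separate cases. This group was put together after the listing was known.

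By position, the HIST1 cluster on chromosome 6 (GRCh38, chr6:25726132-27893843) held 55 of the members. Of these, 40 (72.7%) were listed in HepG2, 37 (67.3%) in Huh7 and 32 (58.2%) in both. The HIST2 genes on chromosome 1 numbered 12, with 6 listed in HepG2, 8 in Huh7 and 4 in both. Of the 3 HIST3 genes, also on chromosome 1, HIST3H3 was listed only in HepG2, HIST3H2BB only in Huh7 and HIST3H2A in neither. The single HIST4 gene, on chromosome 12, was listed only in HepG2.

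The HIST1 genes fall into 4 sub-clusters when they are divided at gaps of more than 100000 bases between gene starts. The sub-cluster with the highest coordinates (chr6:27807444-27893843) ran from HIST1H2BL to HIST1H2BO and held 16 genes of all 5 classes. In it 14 genes (87.5%) were listed in HepG2 and 13 (81.2%) in Huh7, and the 13 were all listed in both. Among the 13, few stretches of 75 bases were unique in HIST1H2AI (39.9%), HIST1H2AJ (17.6%), HIST1H2AM (14.7%), HIST1H4J (20.4%) and HIST1H4K (0%). The listing of these genes is uncertain. HIST1H2BN and HIST1H4L were its only genes listed in neither. The largest sub-cluster (chr6:26017085-26285638) ran from HIST1H1A to HIST1H4H and held 32 genes. In it 21 (65.6%) were listed in HepG2, 19 (59.4%) in Huh7 and 15 (46.9%) in both. It held 7 of the 10 HIST1 genes listed in neither, and 5 of the 6 H1 genes. In the sub-cluster of 5 genes between them (chr6:27125897-27147515) 4 genes were listed in both comparisons, and HIST1H2BK in neither. The remaining pair, HIST1H2AA and HIST1H2BA, split, with HIST1H2BA listed in HepG2 and HIST1H2AA in Huh7.

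**Figure D3:**
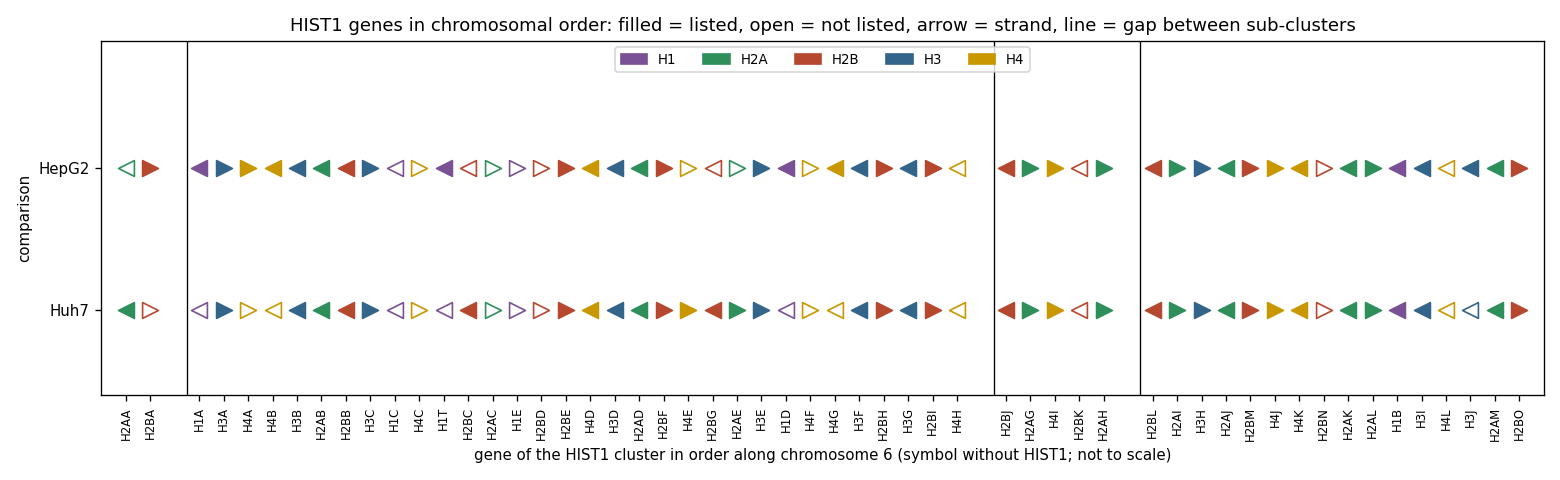
The 55 HIST1 genes in their order along chromosome 6 (horizontal axis, not to scale), with HepG2 in the upper row and Huh7 in the lower row. Triangles point in the direction of transcription and are coloured by class; filled triangles are listed genes, and vertical lines mark the gaps between sub-clusters. In the rightmost sub-cluster 13 of 16 genes are filled in both rows.

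Many H2A and H2B genes stand head to head and share the DNA between their starts. By the gene starts of GENCODE release 29 there were 11 such pairs with starts under 1000 bases apart, each of an H2A and an H2B gene. In HepG2 both genes were listed in 6 pairs, 1 gene in 2 pairs and no gene in 3 pairs. In Huh7 the numbers were 6, 4 and 1. Of all replication-dependent H2A and H2B genes, 64.7% and 61.1% were listed in HepG2, and 76.5% and 72.2% in Huh7. Whether pairs were listed together more often than these shares give was not tested. The pairs HIST1H2AD/HIST1H2BF, HIST1H2BJ/HIST1H2AG, HIST1H2BL/HIST1H2AI, HIST1H2AJ/HIST1H2BM and HIST1H2AM/HIST1H2BO were listed whole in both lines. In HIST1H2AD (2.19%), HIST1H2AI (39.9%), HIST1H2AJ (17.6%) and HIST1H2AM (14.7%) few stretches of 75 bases were unique to the gene. The listing of these genes, and so of their pairs, is uncertain. HIST2H2BE and HIST2H2AC, 323 bases apart, were both listed in HepG2 and both unlisted in Huh7. HIST1H2BG and HIST1H2AE, 283 bases apart, were both listed in Huh7 and both unlisted in HepG2. HIST1H2BK and HIST1H2AH, 331 bases apart, split in both lines, with HIST1H2AH listed and HIST1H2BK not. The listing of HIST1H2BK, with 49.5% unique stretches, is uncertain. HIST1H2AK and HIST1H2BN, whose GENCODE models overlap, are a further pair by their RefSeq starts, 194 bases apart. HIST1H2AK was listed in both comparisons and HIST1H2BN in neither.

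Listed and unlisted genes were found with and without each promoter motif. Of the 45 replication-dependent genes with TATAAA, 31 were listed in HepG2 and 29 in Huh7. Of the 21 without it, 13 and 15 were listed. With CCAAT, 36 of 56 genes were listed in HepG2 and 38 of 56 in Huh7, and without it 8 of 10 and 6 of 10, all of these 10 being H4 genes. With the octamer, 19 of 26 genes (73.1%) were listed in HepG2 and 21 (80.8%) in Huh7, and without it 25 of 40 (62.5%) and 23 of 40 (57.5%). Of the genes with it 2 of 26 were listed in neither, and of those without it 10 of 40. Within H2B, 10 and 11 of the 14 genes with the octamer were listed in HepG2 and Huh7, beside 1 and 2 of the 4 without it. Within H2A the counts were 8 and 9 of 11 with it, and 2 and 3 of 5 without it. The groups are small, the octamer was searched after values had been seen, and these differences were not tested. Because many H2A and H2B genes share 1 octamer site, the genes with it are not separate cases. No match in these windows says only that the letters are not there.

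The length of the annotated transcript differed between the listing states. In GENCODE release 29, which may not be the annotation that the authors counted with, the model of 33 replication-dependent genes ended with the coding sequence and held no untranslated bases. Of these 33, 27 (81.8%) were listed in HepG2, 23 (69.7%) in Huh7 and 22 (66.7%) in both. Of the 38 with longer models, 21 (55.3%), 23 (60.5%) and 14 (36.8%) were listed. The median length of the longest model was 411 bases for the 36 genes listed in both, 519 for the 12 listed only in HepG2, 1510 for the 10 listed only in Huh7 and 642 for the 13 listed in neither. Of the 10 listed only in Huh7, 1 had a coding-only model, beside 22 of the 36 listed in both. Over all protein-coding genes the medians of the same 4 states lay between 3079 and 3367 bases. The stem-loop is part of the longer models. Of the 32 genes with it, 17 were listed in HepG2 and 22 in Huh7, and of the 39 without it 31 and 24. The part of the annotation in the listing was not tested.

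**Figure D4:**
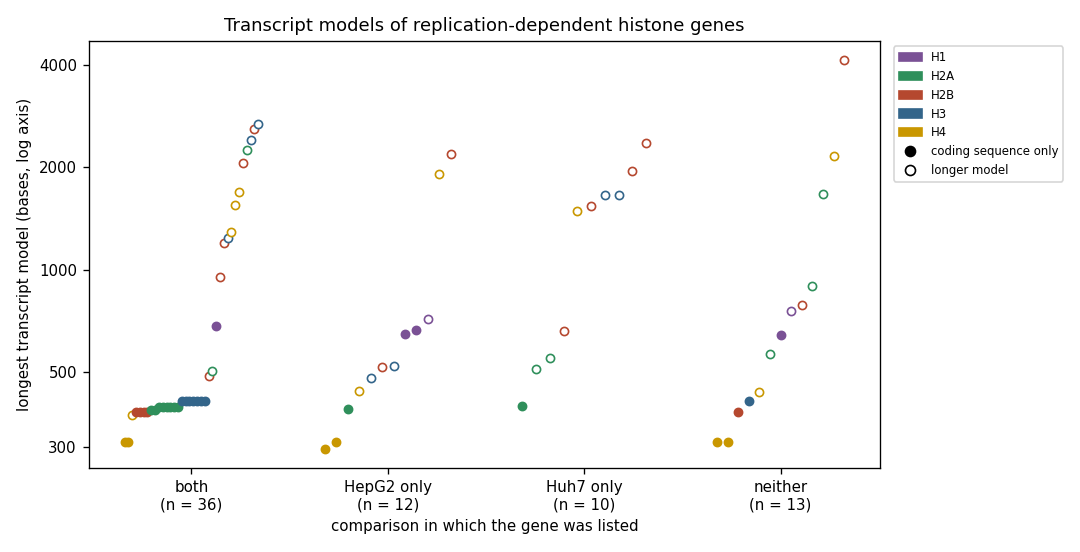
Longest transcript model of the 71 replication-dependent genes (vertical log axis, bases) by listing state, each point a gene coloured by class. Filled points are models that hold the coding sequence only and open points are longer models. Filled points make up 22 of 36 genes listed in both comparisons and 1 of 10 genes listed only in Huh7, whose median length was 1510 bases.

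Sequence sharing was measured as the share of a gene's stretches of 75 bases found in no other gene's transcripts. The medians by class were 100% for H1, H3 and H4, 99.1% for H2A and 98.6% for H2B. Some genes stood far lower, among them HIST2H4A at 3.79%, HIST2H4B at 2.86%, HIST1H2AD at 2.19%, and HIST1H4K, HIST1H3D, HIST2H3A and HIST2H3C at 0%. HIST1H2AI stood at 39.9%, HIST1H2AJ at 17.6%, HIST1H2AM at 14.7%, HIST1H4J at 20.4% and HIST1H2BK at 49.5%. The listing of these genes is uncertain, because many of their stretches also match other transcripts. HIST1H2BJ stood at 98.7%, near the H2B median. HIST1H3D and HIST1H2AD lie inside a longer overlapping gene model on the same strand, AL031777.3. Of the 16 replication-dependent genes under 50%, 10 were listed in HepG2 and 13 in Huh7. Of the 55 at 50% or more, 38 and 33 were listed. The part of shared reads in the listing was not tested.

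The KEGG tables show how far histone genes made up the listed genes of the pathways they fall under. The pathways hold 136 (Systemic lupus erythematosus), 180 (Alcoholism), 206 (Viral carcinogenesis) and 179 (Transcriptional misregulation in cancer) background genes. How many of these are histone genes was not counted, so the shares do not separate listing from the make-up of a pathway. All listed genes of H2A, H2B, H3 and H4 were in the KEGG tables (48 in HepG2 and 47 in Huh7), whereas the 7 and 3 listed H1 genes were in none of them. Under Systemic lupus erythematosus, a pathway that holds nucleosomes as autoantigens, 48 of 62 listed genes (77.4%) in HepG2 and 47 of 68 (69.1%) in Huh7 were histone genes. Under Alcoholism the counts were 48 of 75 (64%) and 47 of 74 (63.5%). Both pathways held every listed core histone gene. Viral carcinogenesis drew on H2B and H4 alone, with 21 of 59 listed genes (35.6%) in HepG2, made up of 11 H2B and 10 H4 genes, and 20 of 55 (36.4%) in Huh7, made up of 13 H2B and 7 H4 genes. Transcriptional misregulation in cancer drew on H3 alone, with 13 of 67 (19.4%) in HepG2 and 12 of 56 (21.4%) in Huh7. The HepG2 and Huh7 counts of these 4 pathways thus followed the class counts given above.

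**Figure D5:**
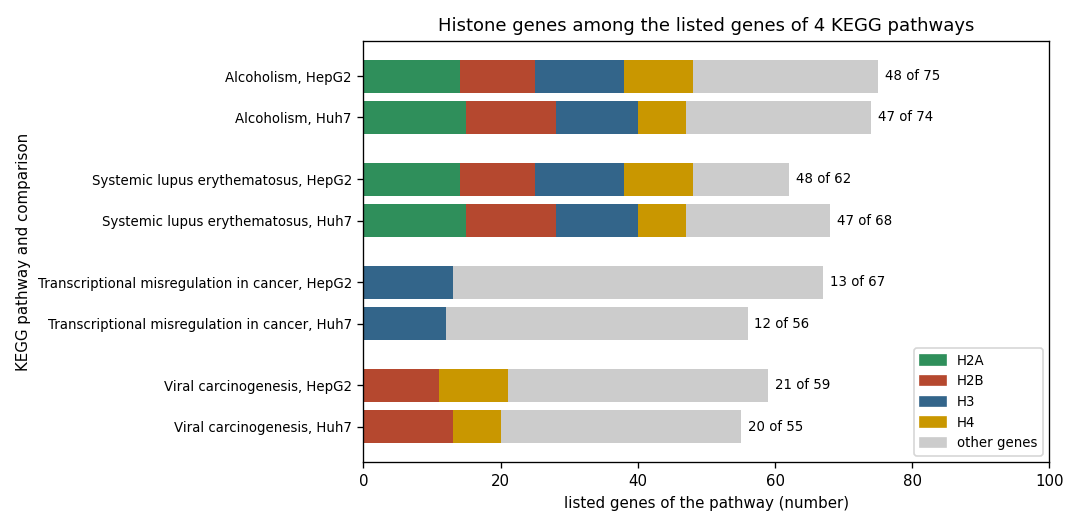
Histone genes among the listed genes of 4 KEGG pathways. Each bar is a pathway in a comparison, its length the number of listed genes, with histone classes in colour and all other genes in grey; the printed counts are histone genes of all listed genes. Histone genes fill 48 of 62 and 47 of 68 listed genes of Systemic lupus erythematosus and 13 of 67 and 12 of 56 of Transcriptional misregulation in cancer.

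The listed genes of several GO terms were also almost wholly histone genes. Some of these terms are small, such as DNA replication-dependent nucleosome assembly with 33 background genes. The share of histone genes among all genes of a term was not counted, so these shares do not separate listing from the make-up of the term. Under DNA replication-dependent nucleosome assembly all 19 listed genes in HepG2 (100%) and 16 of 17 in Huh7 (94.1%) were members, and DNA replication-dependent nucleosome organization held the same counts. Under the cellular component nucleosome, which holds 113 background genes, the members were 55 of 58 listed genes (94.8%) and 50 of 52 (96.2%). Nuclear nucleosome had 22 of 23 and 16 of 16. Chromatin silencing at rDNA had 20 of 22 in HepG2 and 19 of 22 in Huh7, and nucleosomal DNA binding 20 of 23 and 15 of 19. Regulation of posttranscriptional gene silencing and regulation of gene silencing by miRNA, whose names do not speak of nucleosomes, each had 20 of 24 and 19 of 21, as did regulation of gene silencing by RNA. A listed histone gene stood under a median of 156 GO terms in HepG2 and 109 in Huh7, with a range of 53 to 217. The replication-dependent H3 and H4 genes stood under a median of 209 terms in both lines, and the H2A genes under 54. In all, 552 of the 14390 GO terms of HepG2 and 454 of the 13760 of Huh7 held at least 1 listed histone gene, so the same genes entered many terms.

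Genes that act on histones or work beside them in S phase were also counted, beside the background shares of 21.6% in HepG2 and 19.7% in Huh7. Of 35 genes of S-phase DNA replication, 9 (25.7%) were listed in HepG2 and 14 (40%) in Huh7. The 9 of HepG2 were listed in Huh7 as well. They were MCM3, a subunit of the replicative helicase, MCM10, GINS1 and GINS2, subunits of the GINS complex, RFC2 and RFC3 of the clamp loader, POLA2 and PRIM1 of the primase complex, and the uracil glycosylase UNG. Those listed only in Huh7 were MCM5, MCM6, MCM7, the sliding clamp PCNA and the ribonucleotide reductase subunit RRM2. Of 41 histone chaperones and nucleosome assembly factors, 9 (22%) were listed in HepG2 and 6 (14.6%) in Huh7. Those listed in both were SPTY2D1, the H2A.Z chaperone ANP32E, MMS22L and TSPYL2. Of 12 genes of histone gene transcription, 2 were listed in each line (16.7%), with CCNE2, a cyclin E that activates CDK2 at the start of S phase, in both. POU2F1, whose protein binds the octamer, was listed only in Huh7, and HINFP, which binds H4 promoters, only in HepG2.

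The genes that process and degrade the stem-loop mRNAs gave small counts, read against the same background shares of 21.6% and 19.7%. Of 16 genes of histone mRNA 3′ processing, 2 (12.5%) were listed in HepG2 and 1 (6.25%) in Huh7, with SNRPF, a shared Sm protein, in both. SLBP, whose protein binds the stem-loop shown above, was listed in neither. Of 11 genes of histone mRNA translation and decay, 1 (9.09%) was listed in HepG2 and 2 (18.2%) in Huh7, with TUT7, which adds uridines to histone mRNA, in both and UPF1 only in Huh7. No difference between these lists and the background was tested.

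Of 11 further histone genes outside the rule, H2BK1 was listed only in Huh7, and the other 10, among them the centromeric H3 gene CENPA, were listed in neither comparison. The background shares were 21.6% in HepG2 and 19.7% in Huh7. H2AL1Q, H2AL1MP and H2BN1 are not among the protein-coding genes of GENCODE release 29, so whether they could have been listed is unknown.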

How the data were processed

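RNA of HepG2 (groups A and B) and Huh7 (groups C and D) was sequenced as 1 library in each of 4 groups, assigned by the sample labels. The authors filtered reads, and the submitters' processing notes name HISAT2, Bowtie2 2.2.8, StringTie 1.3.1 and Cuffdiff 2.1.1. The genome build and annotation are not given in the sources used here. The authors called mRNAs by an adjusted p-value with 1 library on each side, and tested GO terms with GOseq and KEGG pathways with KOBAS. The methods name Cuffdiff for the calls, and the study's results name another tool. The values deposited by the authors are numbers of genes, with identifiers, under each term, not read counts. Their p-value columns were not used.

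The histone genes and the partner lists were chosen with earlier results of these data known. All genes of the partner lists listed in both comparisons were named, with others of those lists chosen after their listing was seen, and 1 gene of these lists is not reported here. KEGG pathways were named with at least 5 listed histone genes, and GO terms as the 8 with the largest histone share in HepG2 among terms with at least 10 listed histone genes in both comparisons, ties ordered by accession, with a further tied term also named. Genes were matched by Ensembl identifier to GENCODE release 29, and 5 of the 88 histone genes (H1F0, H1FX, H1FNT, H1FOO and H2BFS) entered by newer symbol only. Coding sequences and stretches of 75 bases were read from its transcripts, promoters from RefSeq by symbol. No depth was available, so no precision is given. Counts were made in Python 3.11.15, with the listing code tested on simulated data, and plotted with matplotlib 3.10.9.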

Additional observations from a re-analysis of the deposited data

How the results depend on the processing

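Counts of histone genes listed in HepG2, in Huh7 and in both kept within 1.5 times of 55, 50 and 39 in 24 recounts: from the KEGG tables (48, 47 and 36), from 1 kind of GO term at a time, from GO and KEGG together, for the replication-dependent genes alone (48, 46 and 36), and, chosen after seeing the data, without members found by newer symbol only (52, 48 and 37) and for the 68 members with at least 50% unique stretches (44, 37 and 29). The recounts by kind of GO term, and from GO and KEGG together, gave 55, 50 and 39 again. They read the same called genes, and neither they nor the KEGG recount check the calls themselves. With 1 entry for each distinct protein, counted as listed when any of its genes was, the counts fell to 32, 25 and 20 of 53. For the 54 members whose model reaches beyond the coding sequence, also chosen after seeing the data, they were 28, 27 and 17. Fewer entries were counted in both, and the shares were 60.4%, 47.2% and 37.7%, and 51.9%, 50% and 31.5%. Against protein-coding genes the background shares were 23.9% and 21.9%. No paired analysis was possible because each group was 1 library without a replicate number. No replicate could be left out, and the tables hold no reads, so depth, direction and size of change were not analysed here.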
